A study of Mus musculus with 6 samples.

Results

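The genes described here are 8 genes of the Fc receptor and ITAM adaptor system, measured in DN2 thymocytes with and without E2A. They are the adaptors Fcer1g, Tyrobp and Hcst, the activating Fc gamma receptors Fcgr1, Fcgr3 and Fcgr4, the inhibitory Fc gamma receptor Fcgr2b, and the kinase Syk. All 8 were found, in 16 of the 45037 probe sets beside the array controls, and each of the 16 is assigned by the array annotation to that gene alone. The genes were chosen with the contrast between E2A-deficient and wild-type arrays in view. Their differences, intervals and counts past the threshold of the array-wide fit are therefore given as a description, and nothing is inferred from them.

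The arrays were 3 of E2A-deficient and 3 of wild-type cells, both from mice of the FVB background, sorted as DN2 cells from the fetal thymus. DN2 cells are early thymocytes, without CD4 and CD8, that are passing into the T-cell lineage. E2A names the E protein transcription factors encoded by Tcf3. The labels do not give the allele, whether any deletion was confined to some cells, the fetal age, or how many animals a sample held, and they do not say that replicates came from separate animals.

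ITAMs, immunoreceptor tyrosine-based activation motifs, are short stretches with a pair of tyrosines in the tails of receptor chains. When a receptor is engaged, Src-family kinases phosphorylate these tyrosines, and Syk or its relative ZAP-70 binds to them and passes the signal on. Most activating Fc receptors and many NK and myeloid receptors have no ITAM of their own and borrow one from Fcer1g (the FcR gamma chain) or Tyrobp (DAP12), while Hcst (DAP10) carries a motif that recruits PI3-kinase and the adaptor Grb2. T cells use the ITAMs of the CD3 and zeta chains for the same purpose.

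In E2A-deficient cells Fcer1g, Tyrobp and the low-affinity IgG receptor Fcgr3 were higher, each by a little over 2-fold on the arrays. Hcst, Syk and the other Fc gamma receptors did not share this difference. The largest difference of any of their 13 probe sets was a log2 value of -0.42. Those of Fcgr1 and Fcgr4, and all but the brightest of Fcgr2b, were dim in both groups, near or below the array medians.

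The targeted gene Tcf3 had intensities of 236, 229 and 281 in E2A-deficient cells, against 477, 421 and 414 in wild-type cells. Kit, Cd44 and Il2ra, which define the stage, were read beside the DN2 label. Since the cells were sorted as DN2, their levels are no independent check of it. Kit lay between 297 and 394 in E2A-deficient cells and between 272 and 298 in wild-type cells. Cd44 lay between 412 and 420 and between 386 and 434, and Il2ra between 773 and 1225 and between 813 and 1007, in the same order of groups. All of these lay above the array medians, which were 77.4 to 79.0. Other DN2 markers differed between the groups, with log2 differences of 1.45 for Gata3, -1.33 for Thy1 and -1.46 for Notch1. Wild-type replicate 3 stood apart in Xist, the transcript of the inactive X chromosome, at 58.7 against 3055 and 4456 in the other wild-type arrays, while E2A-deficient arrays lay between 1247 and 2154. Without that array the log2 differences were 1.25 for Fcer1g, 0.99 for Tyrobp and 1.15 for Fcgr3. On the beta-actin control probe sets, the 5' signal divided by the 3' signal, a measure of RNA integrity and amplification, was 0.149 to 0.165 in E2A-deficient arrays and 0.0981 to 0.162 in wild-type arrays.

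Windows of 300 bases around the start of transcription are shown for 4 of the genes, because E proteins bind the E-box, CANNTG, and because they set genes that differed between the groups beside neighbours that did not. They run from 250 bases before to 50 bases after the start, 5' to 3', with E-boxes in capitals, and come from RefSeq (GRCm38.p6). Fcer1g and Fcgr3 were higher in E2A-deficient cells. Fcgr4 lies near Fcgr3 with no other protein-coding gene starting between them. Hcst is the neighbour of Tyrobp, which was higher too but had no window to set beside it. The windows are chr1:171234300-171234599 (minus strand) for Fcer1g, chr1:171059345-171059644 (minus strand) for Fcgr3, chr1:171018676-171018975 (plus strand) for Fcgr4 and chr7:30419805-30420104 (minus strand) for Hcst.
Fcer1g: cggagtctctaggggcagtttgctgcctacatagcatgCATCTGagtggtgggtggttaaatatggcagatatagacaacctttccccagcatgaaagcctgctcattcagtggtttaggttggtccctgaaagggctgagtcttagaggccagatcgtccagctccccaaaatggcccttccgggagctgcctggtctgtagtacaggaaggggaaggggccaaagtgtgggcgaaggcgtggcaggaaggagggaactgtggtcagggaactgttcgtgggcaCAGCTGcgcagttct
Fcgr3: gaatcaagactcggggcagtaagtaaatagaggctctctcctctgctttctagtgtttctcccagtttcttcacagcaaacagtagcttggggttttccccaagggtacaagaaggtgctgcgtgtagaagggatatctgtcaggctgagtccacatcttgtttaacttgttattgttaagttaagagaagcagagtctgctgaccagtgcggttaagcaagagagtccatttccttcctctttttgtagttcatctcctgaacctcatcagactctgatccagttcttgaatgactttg
Fcgr4: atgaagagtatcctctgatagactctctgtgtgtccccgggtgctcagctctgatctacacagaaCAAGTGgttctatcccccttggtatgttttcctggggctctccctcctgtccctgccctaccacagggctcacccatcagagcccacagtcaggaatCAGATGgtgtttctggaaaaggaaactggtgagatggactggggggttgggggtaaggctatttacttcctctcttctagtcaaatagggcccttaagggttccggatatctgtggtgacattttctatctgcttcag
Hcst: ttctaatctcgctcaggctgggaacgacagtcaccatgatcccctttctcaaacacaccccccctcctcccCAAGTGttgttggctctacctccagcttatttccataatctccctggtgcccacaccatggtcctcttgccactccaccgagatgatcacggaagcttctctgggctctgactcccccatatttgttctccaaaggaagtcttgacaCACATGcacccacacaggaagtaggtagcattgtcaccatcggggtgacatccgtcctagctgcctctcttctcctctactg

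There were 9 windows for 7 of the 8 genes, and Tyrobp had no window. Fcer1g held 2 E-boxes, one of them of the form CAGCTG, whose first base is base 36 after the start. Fcgr3 held no E-box in either of its overlapping windows. Fcgr4 and Hcst held 2 E-boxes each, neither of the form CAGCTG. Both windows of Syk held 2, one of them CAGCTG in the first window, and Fcgr1 held 2 and Fcgr2b held 1. An E-box was present in 72.3% of all 32851 windows of this length and the form CAGCTG in 16.3%. The form CACCTG, searched on both strands, was found among the 9 windows only in both of Syk, and in 20.2% of all windows. The RUNX motif TGTGGT, searched on both strands, was found in the Fcer1g and Fcgr4 windows and in 16.8% of all windows. The ETS motif GGAAGT, also searched on both strands, was found in those of Hcst, Fcgr1, Fcgr4, Fcgr2b and the second of Syk, and in 23.8% of all. These matches describe the letters of the windows and were not compared with binding data.

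Among the adaptors, Fcer1g, the gamma chain shared by activating Fc receptors, had intensities of 451, 366 and 501 in E2A-deficient cells, against 188, 177 and 194 in wild-type cells. All E2A-deficient arrays lay above all wild-type arrays, and the lowest of them was 1.88 times the highest wild-type value. The mean was 440 ± 68.5 in E2A-deficient and 187 ± 8.60 in wild-type cells (SD, n = 3 each), a log2 difference of 1.22 (SE 0.113, 95% interval 0.96 to 1.49), or 2.33-fold. On its array the probe set stood at the 91.3 to 93.5 percentile of all probe sets in E2A-deficient cells and at the 81.3 to 84.0 percentile in wild-type cells.

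Tyrobp, the ITAM adaptor of many NK and myeloid receptors, had 1206, 1081 and 1157 in E2A-deficient cells, against 641, 520 and 463 in wild-type cells. Again the groups did not overlap, and the lowest E2A-deficient array was 1.69 times the highest wild-type one. Means were 1148 ± 63.1 and 541 ± 90.8 (SD, n = 3 each), in the same order, which gave a log2 difference of 1.10 (SE 0.117, 95% interval 0.82 to 1.37), or 2.14-fold. In wild-type cells its probe set already stood at or above the 93.9 percentile of each array.

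Hcst had 159, 146 and 142 in E2A-deficient cells and 149, 128 and 146 in wild-type cells. The groups overlapped. The log2 difference was 0.08 (SE 0.0788) with a 95% interval of -0.10 to 0.26. Tyrobp and Hcst are adjacent in the RefSeq table of assembly GRCm38.p6, with 0 genes starting between them. The protein-coding genes on either side of the pair, Lrfn3 (log2 difference 0.06) and Nfkbid (-0.06), did not pass (limma adjusted p = 0.814 and 0.911).

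**Figure D1:**
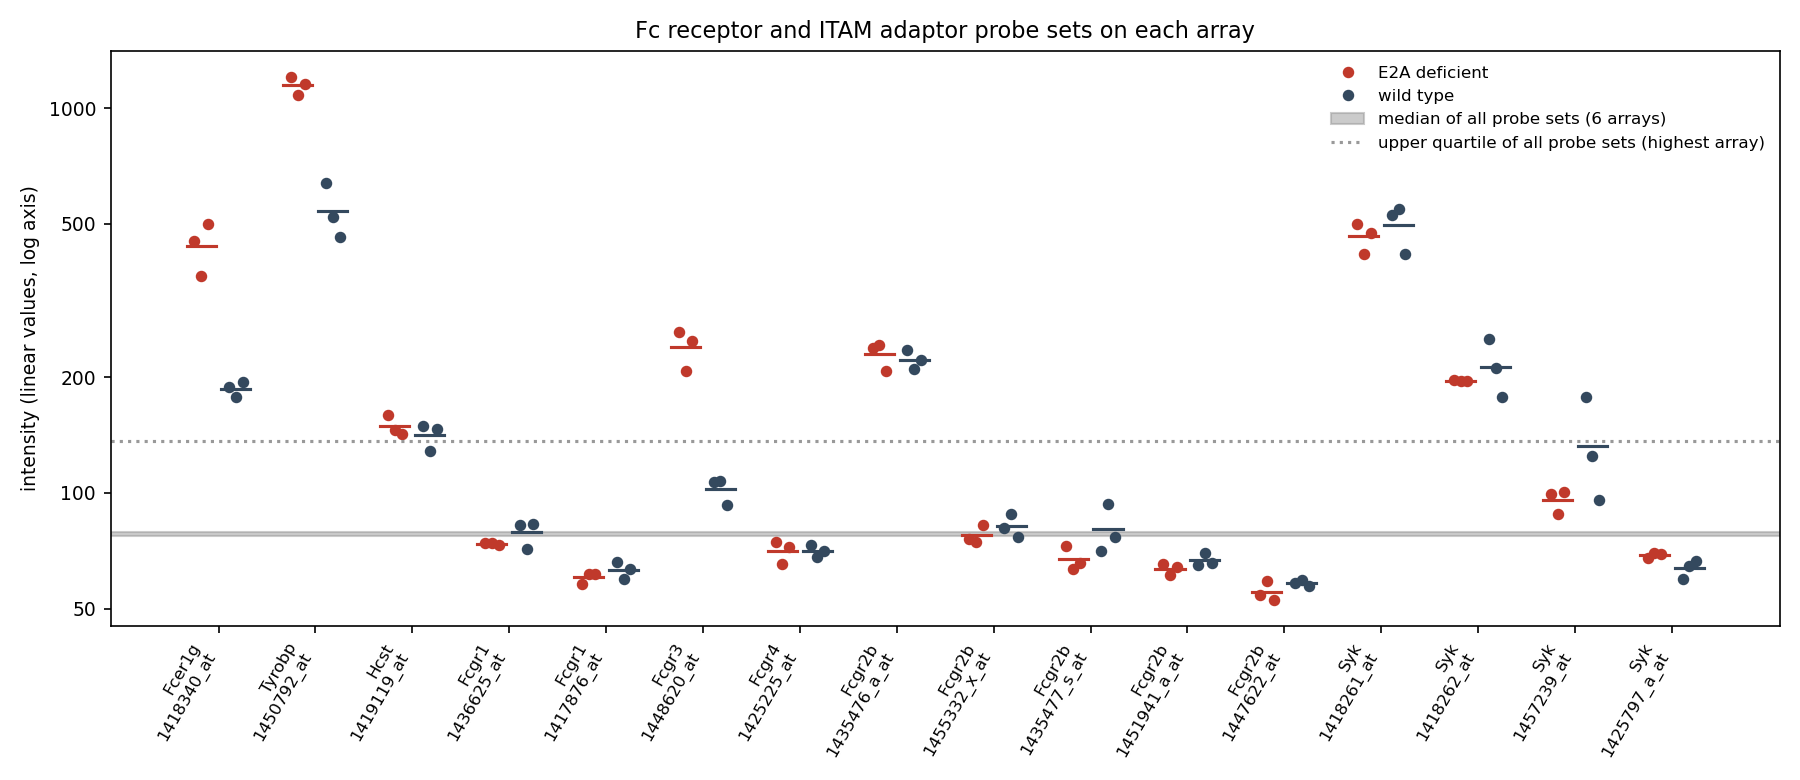
Intensity of each of the 16 probe sets on each array (linear values on a log axis), E2A-deficient arrays on the left of each pair and wild-type arrays on the right, with bars at the means of 3 arrays, a grey band at the array medians and a dotted line at the upper quartile. The groups stand well apart for Fcer1g, Tyrobp and Fcgr3, and 5 probe sets lie below the array median on all 6 arrays.

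Of the activating Fc gamma receptors, Fcgr3, the mouse CD16 and a low-affinity receptor for IgG that needs the gamma chain, had 262, 208 and 248 in E2A-deficient cells, against 107, 107 and 92.9 in wild-type cells. The lowest E2A-deficient value was 1.94 times the highest wild-type value. Means were 239 ± 28.2 and 102 ± 8.08 (SD, n = 3 each), in the same order, a log2 difference of 1.22 (SE 0.102, 95% interval 0.98 to 1.45), or 2.32-fold. The probe set moved across the upper quartile of the array, standing at the 84.2 to 87.6 percentile in E2A-deficient cells and the 61.7 to 68.1 percentile in wild-type cells.

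Fcgr4, an activating receptor for some IgG subclasses that also needs the gamma chain, had 74.3, 65.5 and 72.4 in E2A-deficient and 73.3, 67.9 and 70.6 in wild-type cells. It lay below the array median on all 6 arrays and differed by 0.00 on the log2 scale (SE 0.0672, 95% interval -0.16 to 0.16). Fcgr1, the high-affinity IgG receptor, had 2 dim probe sets. The brighter had 74.0, 74.3 and 73.2 in E2A-deficient and 82.3, 71.5 and 83.2 in wild-type cells, and the other lay below the array median on all 6 arrays. Their log2 differences were -0.09 (SE 0.0706) and -0.06 (SE 0.0610), and their groups overlapped. The brighter Fcgr1 probe set stood at the 42.1 to 54.5 percentile of its array and that of Fcgr4 at the 28.5 to 44.2 percentile.

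Fcgr2b, whose tail carries an inhibitory motif that recruits the phosphatase SHIP1, was read by 5 probe sets. The brightest had 238, 242 and 207 in E2A-deficient and 236, 210 and 221 in wild-type cells. These groups overlapped, with a log2 difference of 0.04 (SE 0.0796, 95% interval -0.14 to 0.23). The other 4 were dim, and their log2 differences lay between -0.25 and -0.07. Fcgr2b and Fcgr3 are related in sequence, and whether a probe set of one also binds the other was not tested.

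The genes around this cluster, picked by position after their values were known, were read as well. Of the 9 other protein-coding genes between Fcgr2b and Fcer1g and on either side of them, 6 were measured, and 0 of them passed by limma, with 1 at an unadjusted p under 0.05 (Sdhc, 0.30, unadjusted p = 0.036). Their log2 differences lay between -0.03 and 0.41, the highest being Apoa2, which was raised on 1 E2A-deficient array (83.1, 79.3 and 169 in E2A-deficient and 77.8, 76.4 and 79.2 in wild-type cells).

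The kinase Syk was read by 4 probe sets. The brightest had 501, 419 and 473 in E2A-deficient cells, against 528, 546 and 418 in wild-type cells, and the groups overlapped. Its log2 difference was -0.09 (SE 0.116, 95% interval -0.36 to 0.18). The next had 197, 195 and 196 in E2A-deficient and 251, 211 and 177 in wild-type cells, with a log2 difference of -0.11 (SE 0.117). In both, the wild-type arrays spread more widely than the E2A-deficient ones. Another had 99.5, 88.0 and 100 in E2A-deficient and 177, 125 and 96.0 in wild-type cells, a log2 difference of -0.42 with the widest error of the 16 (SE 0.199, 95% interval -0.89 to 0.05). The last was dim, below the array median on all 6 arrays. There the groups stood apart by a narrow margin, 67.6, 70.0 and 69.2 in E2A-deficient and 59.9, 64.7 and 66.3 in wild-type cells (log2 difference 0.11, SE 0.0592). The probe sets of Syk thus differed in sign, and only the dim one had groups that did not overlap.

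**Figure D2:**
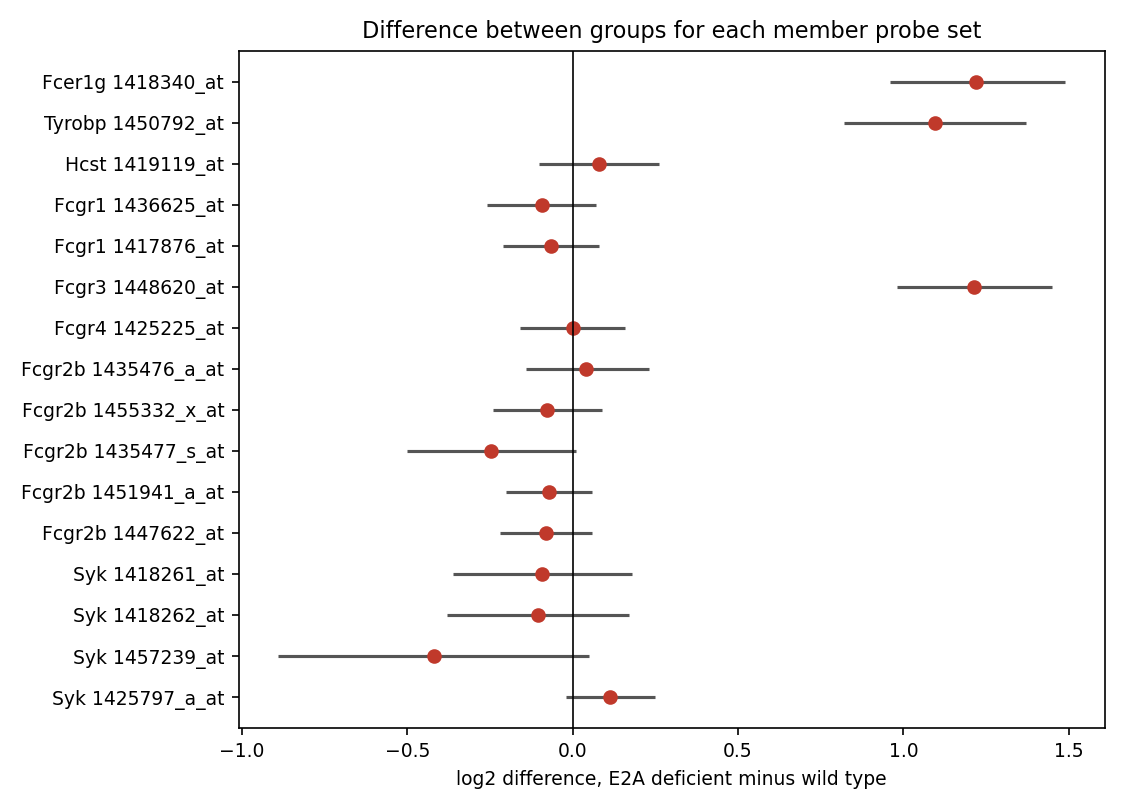
Log2 difference (E2A deficient minus wild type) of each of the 16 probe sets, with the 95% interval from the limma fit, not adjusted for the number of probe sets. Fcer1g, Tyrobp and Fcgr3 lie between 1.10 and 1.22, and the 13 others between -0.42 and 0.11.

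Over the 16 probe sets, 3 passed the threshold of the fit across the array upwards (limma, Benjamini-Hochberg adjusted p under 0.05) and 0 downwards, where 1.21% of all 45037 probe sets passed upwards and 0.580% downwards. Since the genes were chosen on this contrast, these counts are only a description. With the beta-actin 5'/3' ratio as a covariate 0 of the 16 passed, although the log2 differences were 1.31 for Fcer1g, 1.10 for Tyrobp and 1.14 for Fcgr3, and over the whole array 71 in place of 543 passed upwards. Groups that did not overlap, with E2A-deficient cells higher, were found in 4 of the 16, namely Fcer1g, Tyrobp, Fcgr3 and the dim probe set of Syk, where 10.1% of all probe sets did so. The median log2 difference was -0.07 over the 16 probe sets, against 0.00 over all probe sets.

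What part RNA quality had in these differences was not tested. Within the E2A-deficient group, replicate 2 gave the lowest value of Fcer1g, Tyrobp and Fcgr3 alike. Within the wild-type group the order differed, with replicate 3 highest in Fcer1g and lowest in Tyrobp and Fcgr3. Leaving out each array in turn kept the log2 difference between 1.12 and 1.35 for Fcer1g, between 0.99 and 1.22 for Tyrobp, and between 1.15 and 1.31 for Fcgr3.

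**Figure D3:**
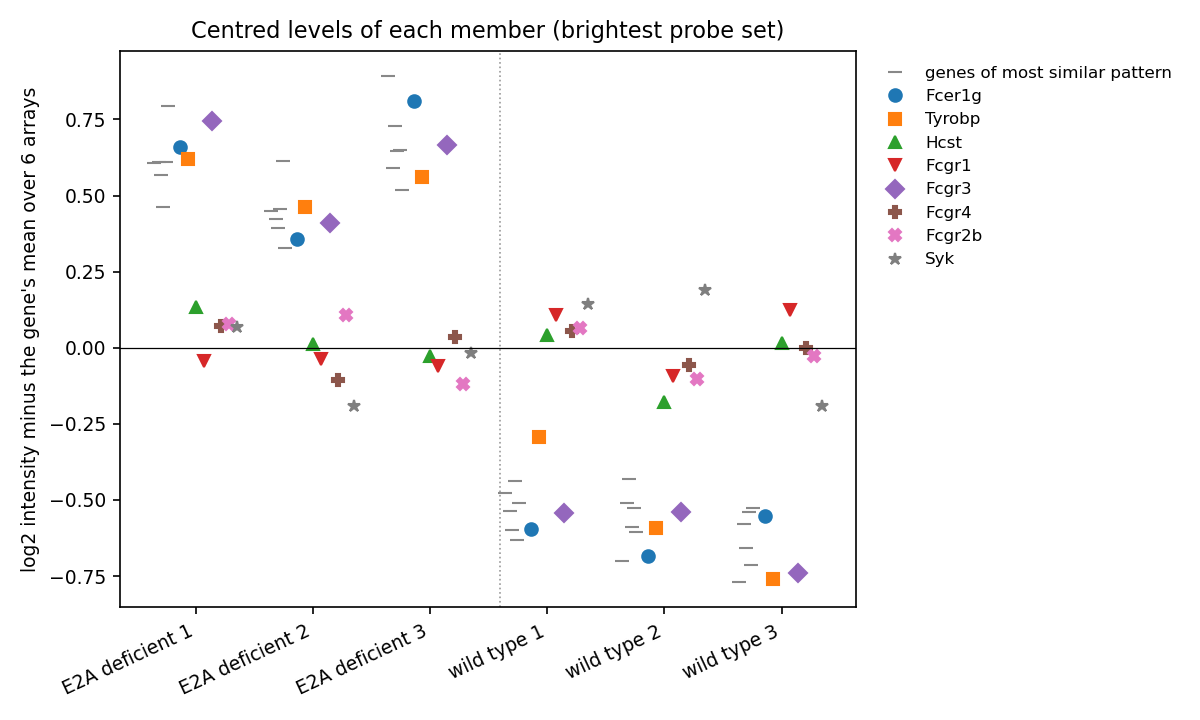
Log2 intensity of the brightest probe set of each of the 8 genes on each array, centred on the gene's mean over the 6 arrays, with the genes of most similar pattern as grey dashes. Fcer1g, Tyrobp and Fcgr3 lie between 0.36 and 0.81 on E2A-deficient arrays and between -0.76 and -0.29 on wild-type arrays, while the 5 other genes lie between -0.19 and 0.19 throughout.

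Likeness of pattern was measured as the root mean square difference of centred log2 values over the 6 arrays, across 18193 genes, each read by its brightest probe set. This measure includes the difference between the groups, which was in view when the members were chosen. The likeness of members to each other is therefore only a description. The 5 genes most like Fcer1g were Gm4047 (0.115), Fcgr3 (0.122), the integrin chain Itgb7 (0.123), the Slit receptor Robo1 (0.123) and the tubulin gene Tuba1a (0.136). The 5 most like Fcgr3 were Itgb7 (0.092), Robo1 (0.097), the lymphocyte surface protein Cd52 (0.107), the cytokine Il4 (0.118) and Fcer1g (0.122). Itgb7, with 469, 412 and 463 in E2A-deficient cells and 212, 215 and 205 in wild-type cells, differed by 1.08 on the log2 scale. Tyrobp ranked 23 by likeness to Fcer1g and 7 by likeness to Fcgr3.

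The rest of the pathway was read in 6 lists by role, with 75 of 84 genes measured. The T-cell chains Cd3e and Cd3g and the scaffold Lat were lower in E2A-deficient cells, as was Plcg1 with less stability across alternatives, while the receptors that pair with Fcer1g, Tyrobp or Hcst were mostly dim in both groups. Of the 75 genes, 1 rose and 4 fell (limma adjusted p under 0.05), where 2.40% of all 18193 genes rose and 1.06% fell. The median log2 difference was -0.01 over the 75 genes and 0.02 over all genes.

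Of 20 measured receptors that signal through Fcer1g, Tyrobp or Hcst, 1 rose and 19 did not pass, with a median log2 difference of -0.01. In this list 14 of the 20 lay below the array median on all 6 arrays and 5 lay above it on all 6. Clec4e, or Mincle, a C-type lectin that signals through the gamma chain, had 184, 143 and 147 in E2A-deficient cells, against 108, 98.5 and 107 in wild-type cells. The groups did not overlap, and Clec4e rose by 0.58 on the log2 scale (SE 0.103, limma adjusted p = 0.0271). It did not pass without E2A-deficient replicate 3 (0.0634) or without wild-type replicate 1 (0.0581), 2 (0.0874) or 3 (0.0699), as limma adjusted p-values, the range over its alternatives being 0.00657 to 0.208. Its other probe set, which was dimmer, gave 0.11. Of 8 other Fc receptors 0 passed by limma, and 2 had an unadjusted p under 0.05. These were the Fc receptor-like gene Fcrl1 (0.31, limma adjusted p = 0.0644) and Trim21, the cytosolic antibody receptor (-0.20, limma adjusted p = 0.164). Their other probe sets, which were dimmer, gave 0.28 for Fcrl1 and 0.03 for Trim21.

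Among 6 other chains that carry ITAMs, 2 fell and 4 did not pass, with a median log2 difference of -0.26. Cd3g had 220, 207 and 278 in E2A-deficient cells, against 1465, 1413 and 918 in wild-type cells. The groups lay far apart, with a log2 difference of -2.41 (SE 0.193, limma adjusted p = 0.00116). Cd3e had 119, 119 and 112 in E2A-deficient cells, against 389, 319 and 360 in wild-type cells. Its log2 difference was -1.60 (SE 0.0830, limma adjusted p = 2.00e-04). Cd3d (-0.41) and the zeta chain Cd247 (-0.10) did not pass, nor did the B-cell receptor chains Cd79a (-0.05) and Cd79b (-0.10).

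Tyrosine kinases of the pathway, 9 measured, gave 0 calls by limma and 0 at an unadjusted p under 0.05. The smallest p-values belonged to the Src-family kinase Src and to Csk, which restrains that family. Src had a log2 difference of 0.19 (limma unadjusted p = 0.0533) and Csk one of 0.32 (limma unadjusted p = 0.102). The other probe set of Src, which was dimmer, gave -0.10. Zap70, the relative of Syk that T cells use, is in this list and did not pass.

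Among 16 adaptors and effectors, 2 fell and 14 did not pass, with a median log2 difference of -0.10. Lat, the membrane scaffold beneath the T-cell receptor and the mast-cell IgE receptor, had 151, 149 and 135 in E2A-deficient cells, against 326, 317 and 287 in wild-type cells (log2 difference -1.09, SE 0.0743, limma adjusted p = 6.77e-04). Plcg1, the phospholipase that Lat recruits, had 248, 281 and 288 in E2A-deficient cells, against 446, 347 and 462 in wild-type cells (log2 difference -0.61, SE 0.119, limma adjusted p = 0.0392). Plcg1 lost its call in 8 of 15 alternatives. It did not pass with the replicate number as a block (limma adjusted p = 0.072), or without E2A-deficient replicate 1, 2 or 3 or wild-type replicate 1 or 3 (limma adjusted p between 0.0945 and 0.131; the whole range of its alternatives was 0.0164 to 0.223), with p-values adjusted over probe sets in place of genes it stood at 0.0575, and its other 2 probe sets, both dim, gave -0.12 and -0.08.

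Of 16 inhibitors 0 passed by limma, with a median log2 difference of 0.03, although 5 had an unadjusted p under 0.05. The smallest p-values were those of Inpp5d, which encodes the phosphatase SHIP1 that acts below Fcgr2b, and of the paired immunoglobulin-like receptor Pirb. Inpp5d had 394, 391 and 408 in E2A-deficient cells and 327, 346 and 339 in wild-type cells (log2 difference 0.24, SE 0.0550, limma adjusted p = 0.0706). Its groups did not overlap, and its other probe set, which was dimmer, gave 0.06. Pirb, a dim signal, differed by 0.27 (limma adjusted p = 0.0711).

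**Figure D4:**
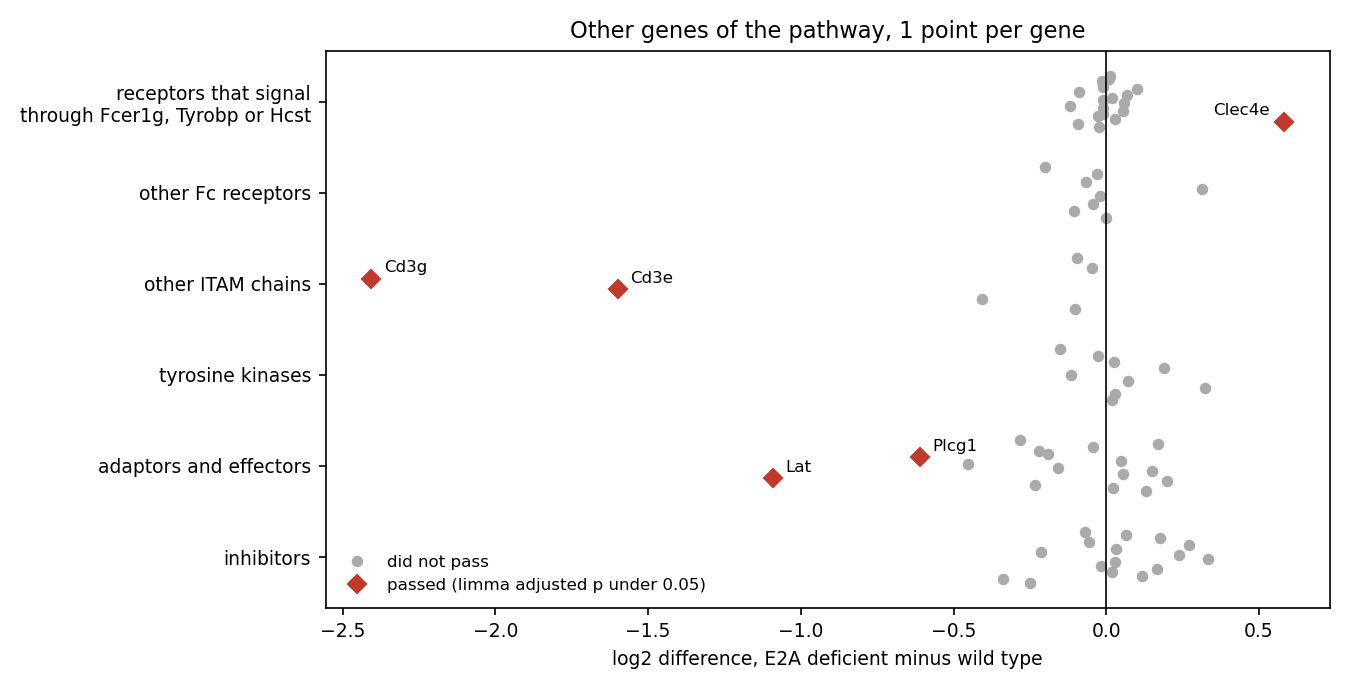
Log2 difference (E2A deficient minus wild type) of 75 genes in 6 lists of the pathway, 1 point per gene, diamonds for the 5 genes that passed in the limma fit. Clec4e lies at 0.58, and Cd3g, Cd3e, Lat and Plcg1 lie between -2.41 and -0.61.

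Fcer1g, Tyrobp and Fcgr3 are used by myeloid, NK, mast and innate lymphoid cells, so markers of these cells were read beside them. In bulk samples more cells of a type and more RNA per cell cannot be told apart. Of 11 monocyte and macrophage markers, 1 rose, 1 fell and 9 did not pass. An unadjusted p under 0.05 was found for 3 of them, Cx3cr1, Lyz2 and Cd68. Their summed intensity was 927 to 948 in E2A-deficient arrays and 840 to 889 in wild-type arrays, and without Cx3cr1 it was 742 to 778 and 741 to 798, in the same order. Cd14, Itgam, Marco and Mrc1 lay below the array median on all 6 arrays, while Cd68 (log2 difference 0.18), Mpeg1 (0.15) and Adgre1 (0.14) differed slightly and did not pass. The groups of Cd68 did not overlap (limma unadjusted p = 0.019, limma adjusted p = 0.189). Csf1r, the receptor for macrophage colony-stimulating factor, had 94.8, 95.4 and 97.2 in E2A-deficient and 112, 87.3 and 104 in wild-type cells. Lyz2, the lysozyme of myeloid cells, fell by 0.50 on the log2 scale (limma adjusted p = 0.0151), and the chemokine receptor Cx3cr1 rose by 0.86 (limma adjusted p = 0.0118), with 0.03 in its other, dim probe set.

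Of 10 NK-cell markers 1 rose, the granzyme gene Gzmb (1.19, limma adjusted p = 0.0181), and 9 did not pass. In this list 2 had an unadjusted p under 0.05, Gzmb and Gzma, whose log2 difference of -0.36 did not pass (limma adjusted p = 0.121). Their summed intensity was 2288 to 2434 in E2A-deficient and 2034 to 2347 in wild-type arrays. Ncr1, Klrd1, Klre1, Klra8 and Tbx21 lay below the array median on all 6 arrays, while Nkg7, Gzma and Gzmb lay above it on all 6. Nkg7 had 1155, 1071 and 1064 in E2A-deficient cells and 1038, 998 and 874 in wild-type cells. Its groups did not overlap, and its log2 difference of 0.18 did not pass (limma adjusted p = 0.344). Of 10 mast-cell and basophil markers 0 passed by limma, with 0 at an unadjusted p under 0.05, and the sums were 1615 to 2008 and 1713 to 1832, again with E2A-deficient arrays first. Much of this was Cpa3, bright in both groups at 919 to 1324 and 1021 to 1155. Without Cpa3 the sums were 684 to 697 and 676 to 692, in the same order. Of 10 neutrophil markers 1 fell, the granule protease Ctsg (-0.87, limma adjusted p = 0.00215), and 9 did not pass. Sums of this list were 1696 to 1978 in E2A-deficient and 1582 to 1867 in wild-type arrays. Much of this was Mpo, bright in both groups at 938 to 1202 and 829 to 1030. Without Mpo the sums were 728 to 809 and 753 to 836, in the same order. Of 10 dendritic-cell markers 0 passed by limma, 0 with an unadjusted p under 0.05, and of 7 B-cell markers 0 passed, 1 with an unadjusted p under 0.05, Vpreb1 (-0.32, limma adjusted p = 0.0594). The dendritic sums were 878 to 900 in E2A-deficient and 867 to 907 in wild-type arrays, and the B-cell sums were 479 to 505 and 491 to 521.

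Several markers of innate lymphoid and gamma-delta T cells were higher in E2A-deficient cells, beside others that were not. Of 8 measured innate lymphoid markers 6 rose, namely Icos (log2 difference 3.10), Rora (2.16), Ahr (1.59), Id2 (1.44), Zbtb16 (1.41) and Cxcr6 (0.65). These values are of the brightest probe set of each gene, and that of Cxcr6 was dim. Other probe sets gave 0.11 for Ahr, 0.155 and 0.062 for Id2, and 0.18 for Cxcr6. Those of Rora lay between -0.06 and 1.85, and those of Icos gave 1.38 and 0.70 and those of Zbtb16 1.835 and 0.69. Klrg1 (0.31) and Il17rb (-0.29) did not pass (limma adjusted p = 0.112 and 0.28), and the summed intensity was 3754 to 4153 in E2A-deficient and 1824 to 2073 in wild-type arrays. Of 6 measured gamma-delta markers Maf (2.04), Cd163l1 (2.01) and Etv5 (0.58) rose, Sox13 (-0.41) fell and 2 did not pass, with sums of 1260 to 1665 in E2A-deficient and 646 to 696 in wild-type arrays. Their limma adjusted p-values lay between 7.23e-05 and 0.0409. Other probe sets gave 0.05 to 1.10 for Maf, 0.85 for Cd163l1, and 0.08 and -0.03 for Etv5. Of 9 measured DN2 markers Gata3 (1.45) rose, Thy1 (-1.33) and Notch1 (-1.46) fell and 6 did not pass, with sums of 4334 to 5171 in E2A-deficient and 6127 to 6803 in wild-type arrays. In this list 5 had an unadjusted p under 0.05, among them Kit (0.26, limma adjusted p = 0.29) and Bcl11b (-0.42, limma adjusted p = 0.122). The groups of Bcl11b did not overlap. Its other probe sets gave -0.87, -0.36 and -0.77, with limma p-values adjusted over probe sets of 0.118, 0.0925 and 0.0286. Without Notch1 the DN2 sums overlapped, at 3515 to 4399 in E2A-deficient and 3766 to 4248 in wild-type arrays. That sum still held genes that differed in opposite directions, so its overlap does not show that the other markers were alike. Gata3 had means of 709 in E2A-deficient and 258 in wild-type cells, and Thy1 146.5 and 370.2, in the same order. The other probe set of Notch1, which was dimmer, gave -0.36. Leaving out the marker of largest difference, an alternative chosen after seeing the data, did not make the groups overlap in the innate lymphoid list (3040 to 3274 and 1719 to 1979, without Icos) or the gamma-delta list (872 to 935 and 510 to 545, without Cd163l1). What part such cells had in the higher signal of Fcer1g, Tyrobp and Fcgr3 was not tested.

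**Figure D5:**
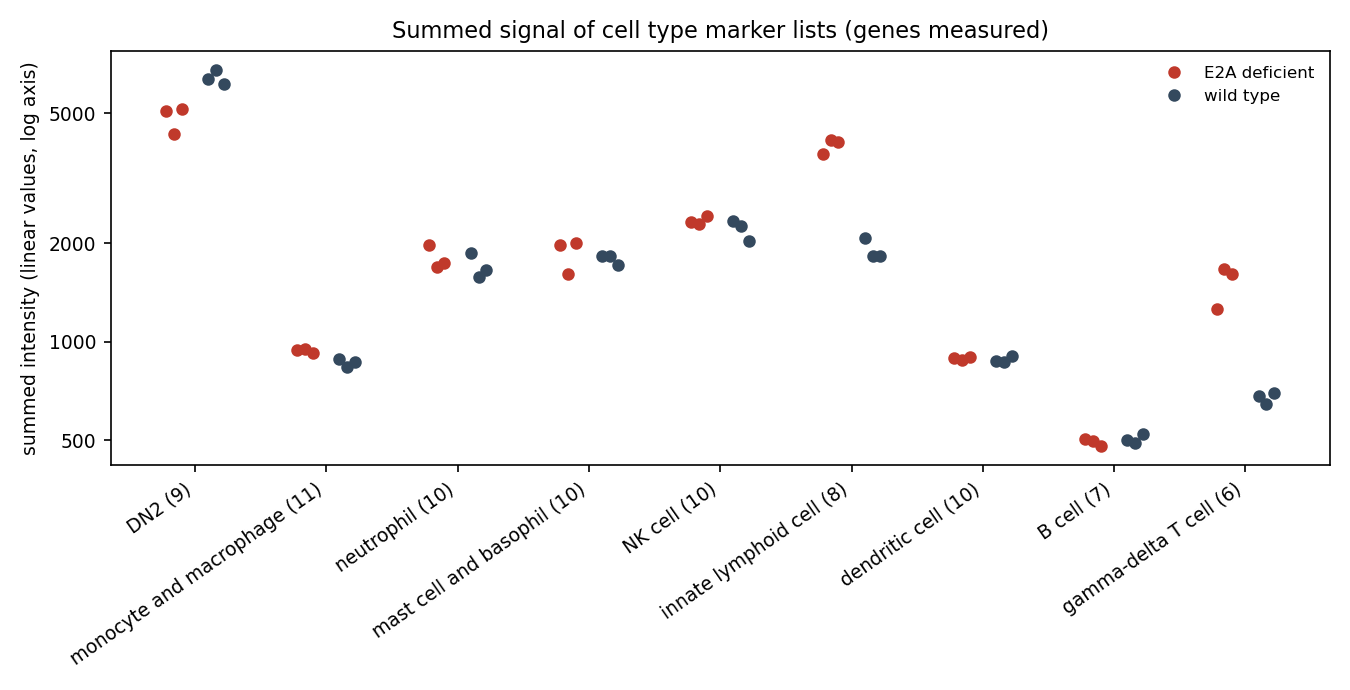
Summed intensity of 9 lists of cell type markers on each array (linear values on a log axis), E2A-deficient arrays to the left of wild-type arrays, with the number of genes measured in brackets. The innate lymphoid and gamma-delta sums are higher on all E2A-deficient arrays, while the DN2 sum is lower on all of them and the monocyte and macrophage sum is higher on all of them, 2 gaps that are gone without Notch1 and without Cx3cr1. The DN2 sum without Notch1 still holds Gata3, which rose, and Thy1, which fell.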

How the data were processed

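Intensities of 6 Affymetrix mouse arrays were used as deposited by the authors, 1 value per probe set and array. Per the submitters' processing notes RMA was used; no version or other tool is named. The values are linear, so log2(intensity + 1) was analysed, with no further normalization and no filter. The 64 control probe sets were left out. The platform annotation gave 1 gene for 34945 of the 45037 probe sets, of which 34741 matched the RefSeq table by Entrez identifier with 0 symbols changed.

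E2A-deficient arrays were compared with wild-type arrays by limma 3.58.1 (R 4.3.3; 2-sided, Benjamini-Hochberg), per probe set, and per gene through its brightest probe set. The lists hold textbook genes, and members not measured were left out. The text names every probe set of the 8 genes, pathway members that passed (or the 2 of smallest p), cell markers that passed, and the 5 genes of nearest pattern. Markers named beside these were chosen after their values were seen. The members and lists were chosen with earlier results of these data known. Fits were tested on simulated data. P-values set the difference between groups against the spread between these samples, which may be technical, and 3 arrays per group limit the precision. Replicate numbers did not pair the arrays. Figures used matplotlib 3.10.9 (Python 3.11.15). The alternatives tried were a block for the replicate number, leaving out every array in turn, no pseudocount, quantile and median normalization, brighter probe sets only, another variance model, the beta-actin ratio as a covariate and 2 other choices of probe set per gene.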

Additional observations from a re-analysis of the deposited data

How the results depend on the processing

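The log2 differences of Fcer1g, Tyrobp and Fcgr3 stayed between 0.99 and 1.35 in all 13 alternatives run for probe sets, and 3 of the 16 probe sets passed upwards and 0 downwards in 12 of them. Adding the beta-actin ratio to the model, 0 passed upwards, the whole array gave 71 higher and 43 lower probe sets in place of 543 and 261, and 0 pathway genes rose; the cause was not tested. With the replicate number as a block the array gave 309 higher and 162 lower, and the 3 probe sets passed. Same-numbered arrays did not deviate together (Pearson correlations of their deviations over probe sets 0.041, 0.041 and -0.036), so the numbers were not taken as pairs. Leaving out each array in turn gave 243 to 380 higher and 115 to 194 lower probe sets, and 0 to 1 rising pathway genes; fewer arrays were fitted. An intensity trend with robust variances gave 3 rising pathway genes (Clec4e, Fcrl1 and Pirb), and averaging all probe sets of a gene gave 2 (Fcrl1 and Pirb). Falling pathway genes numbered 3 or 4 in all 15 alternatives, and Cd3e, Cd3g and Lat passed in each. The deposited values carry no measure of signal over background, so what the 5 probe sets that lay below the array median on all 6 arrays could show is unknown. The same holds for dim probe sets near the median, such as the brighter one of Fcgr1.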
